A study of Mus musculus with 2 samples.

Results

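The exons described are cassette exons, internal exons that a transcript can hold or leave out, whose length of 52 to 200 nt is not divisible by 3, so that leaving one out shifts the reading frame of whatever follows. They were read by long-read RNA sequencing, in which 1 read follows 1 transcript copy through its exons, in tissue labelled as a layer of hippocampus, taken at 14 days of age from B6CASTF1/J females, whose parents were of the C57BL/6J and CAST/EiJ strains. The series holds 1 group of 2 libraries, each a pool of 3 animals, and no second condition. An exon was taken when annotated transcripts both hold it and leave it out between the same flanking splice sites, and when at least 20 reads in each library covered the 2 forms together. Read depth, length and annotation chose the exons, and the share of reads holding the exon was not used. The rule found 1969 such exons in 1486 genes, out of 4450 cassette exons of any length and frame with the same number of reads. A further 1569 exons of 52 to 200 nt in 1228 genes have a length divisible by 3 and are called frame-keeping here.

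Frame matters because a ribosome reads a coding sequence in steps of 3 bases. When a coding exon that shifts the frame is added or removed, the ribosome usually meets a stop codon soon after. A stop well upstream of the last exon junction marks a transcript for nonsense-mediated decay (NMD), a pathway that destroys messages with early stops. Exons whose inclusion brings in such a stop are often called poison exons, and many genes for splicing proteins carry them. A shift near the end of the coding sequence escapes that pathway and gives the protein another C-terminus, and an exon in a 5′ UTR or over a start codon changes what precedes the protein.

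Inclusion was the share of reads holding the exon among the reads of both forms. Replicate 1 held 1168366 reads and replicate 2 held 888704. Reads over both forms of a frame-shifting exon ran from 20 through a median of 61 to 5550 in replicate 1, and from 20 through a median of 51 to 4416 in replicate 2. Intervals, and the limits given where a form had no read, cover counting error only. Of 37 marker genes of hippocampal cell types, 35 were read in both libraries. Levels differed between the libraries for several of them: Prox1, of dentate granule cells, had 6.85 CPM in replicate 1 against 38.3 CPM in replicate 2, Sst, of interneurons, 61.6 against 22.5 CPM, and Slc1a3, of astrocytes, 533 against 934 CPM. The Prox1 values rest on 8 and 34 reads. The other dentate genes were also higher in replicate 2 but differed less, Calb1 with 193 against 246 CPM and C1ql2 with 81.3 against 142 CPM. The other interneuron genes did not all go the way of Sst. Npy was also lower in replicate 2 (73.6 against 47.3 CPM), while Gad1 (172 against 236 CPM) and Gad2 (18.8 against 29.3 CPM) were higher there. The choroid plexus genes differed most, with 5325 Ttr reads in replicate 1 against 5 in replicate 2, and 49 Kcnj13 reads against 0, and no exon described here lies in Ttr, Kcnj13 or Clic6. Whether these differences bore on the exons was not tested.

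Sequences that show what the shift does are printed first, from GENCODE M21 transcripts of the mm10 build, 5′ to 3′ on the gene's strand. For 7 exons left out of the gene's leading coding transcript, the stretch that ends at the first stop codon met in that transcript's frame is shown, from the exon's first base or for the last 30 bases where it is longer, with the stop in capitals. Coordinates are those of the whole exon. They were chosen after their values were seen.
Yaf2 exon of 70 nt (chr15:93317539-93317608, minus strand): aatgccttgaggaccaagggaccgttgTGA
Glrx3 exon of 89 nt (chr7:137452453-137452541, plus strand): cctccaggcatctttTGA
Hnrnpll exon of 83 nt (chr17:80044940-80045022, minus strand): ctgaaacttcttgaaagaagcccacttTGA
Nop56 exon of 119 nt (chr2:130278413-130278531, plus strand): ggaggagataggtgcTGA
Rabggtb exon of 98 nt (chr3:153910064-153910161, minus strand): gtcccactaagcagttggtcTAA
Rbm39 exon of 55 nt (chr2:156176403-156176457, minus strand): agctcaaagtgcttcaTAA
Ap2a1 exon of 109 nt (chr7:44923807-44923915, minus strand): gctgtcctggaatttgaccttgcagaaTAG
In 392 members whose insertion gave an early stop with the whole codon inside the exon, that stop ended a median of 33.5 nt from the exon's first base. It was TGA in 203 exons, TAA in 104 and TAG in 85.

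For 4 exons that the leading coding transcript holds, the last 30 bases of the exon are shown, with the base or bases beyond a multiple of 3 in capitals. Removing such an exon moves the frame by that number of bases, and in all 4 the next stop lies early.
Actr3b exon of 56 nt (chr5:25798446-25798501, plus strand): acactgaaccacagttcattatcccgtcAT
Xpnpep1 exon of 89 nt (chr19:53032009-53032097, minus strand): caccctcaggagacaagagtgtggaaacAG
Prmt5 exon of 119 nt (chr14:54516497-54516615, minus strand): cacgatcagacctactgctgtcaggaagGG
Rnf114 exon of 151 nt (chr2:167507047-167507197, plus strand): gagacttcttgccatggctgccgtaagaaT

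Most frame-shifting exons were read almost entirely in 1 form. Inclusion was over 90% for 1008 of the 1969 exons (51.2%) and under 10% for 716 (36.4%), which leaves 245 (12.4%) between 10 and 90%. Of the 1569 frame-keeping exons, 765 (48.8%) were over 90%, 418 (26.6%) under 10% and 386 (24.6%) between. The share in between was 12.4% of frame-shifting exons in replicate 1 and 13.2% in replicate 2, against 23.6% and 25.7% of frame-keeping exons. Among exons with at least 100 reads over both libraries it was 109 of 1117 (9.76%), against 205 of 877 (23.4%). Exons are not replicates of a condition, so these shares are given as a description with no test. Counting reads of annotated transcripts alone, 152 of the 245 exons kept 20 reads in each library, of which 83 were still between 10 and 90% and 48 had 1 form unread.

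**Figure D1:**
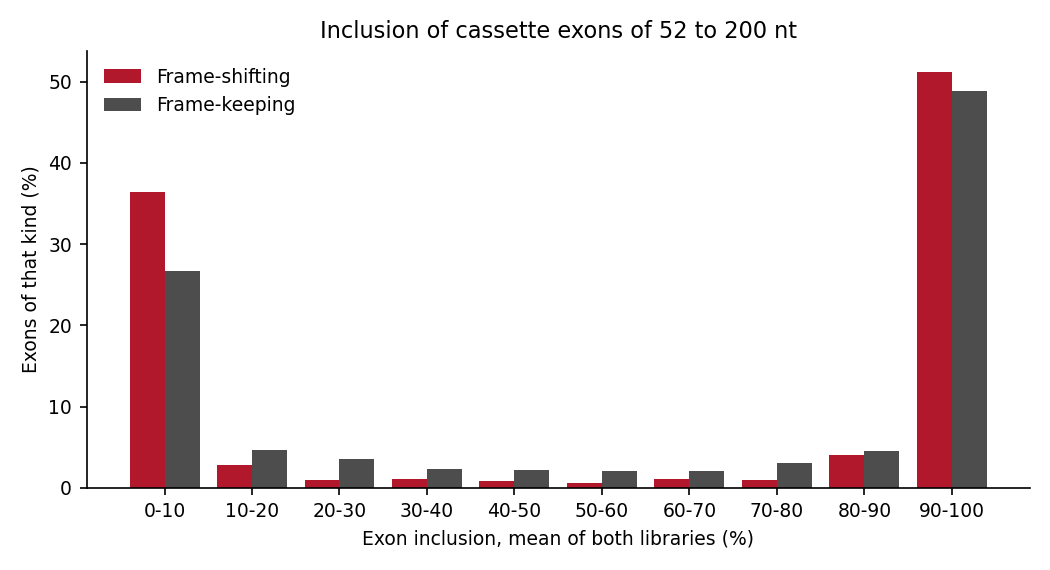
Share of exons (vertical axis, % of exons of each kind) in each 10-point step of mean inclusion over both libraries (horizontal axis, %), for 1969 frame-shifting and 1569 frame-keeping cassette exons of 52 to 200 nt. The outer steps hold most exons of both kinds, and each step between 10 and 90% holds a smaller share of frame-shifting than of frame-keeping exons.

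Many of the members were annotated in a form that these libraries did not show. No read held the exon for 418 frame-shifting exons (21.2%), against 219 frame-keeping ones (14.0%). No read skipped it for 487 (24.7%), against 450 (28.7%). Both forms were read in both libraries for 668 frame-shifting exons (33.9%) and 667 frame-keeping exons (42.5%). The 2 kinds had like depth and make-up, with a median of 113 reads against 115, a length of 109 nt against 102 and a GC content of 49.6% against 50.5%. Of the 971 exons that leave 1 base over, 12.4% were between 10 and 90% and 38.5% under 10%, with a median of 88.4%. Of the 998 that leave 2 bases over, 12.5% were between and 34.3% under 10%, with a median of 94.0%.

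The read minimum and the lengths chose the members, and the values at these limits are given once. Exons with 20 or 21 reads in the shallower library (130 of them) had a median inclusion of 85.4% and 18.5% of them lay between 10 and 90%, against 86.7% and 23.6% for the 123 exons just outside, with 18 or 19 reads. Exons of 52 to 57 nt (76) had a median inclusion of 44.1%, against 23.6% for the 67 exons of 46 to 51 nt that are left out. At the other end, 36 exons of 195 to 200 nt had a median of 92.2% and 10 exons of 201 to 206 nt had 100%.

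The members do not all stand alone. Of the 1486 genes, 1115 hold 1 member, 284 hold 2 and 87 hold 3 or more. A skipping junction is shared by 140 members with another member, and 116 overlap another cassette exon, as in Hnrnpr, where exons of 166 and 169 nt differ at 1 end. All but 6 of the 1969 exons lie in genes annotated as protein-coding.

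The annotation itself marks many of these exons as switches into NMD. In 744 members (37.8%) every annotated transcript of 1 form has the NMD type, against 143 frame-keeping exons (9.11%). In 472 members it is the skipping form, with a coding inclusion form, and in 269 it is the inclusion form, with a coding skipping form. A further 711 members (36.1%) are annotated as coding in both forms, meaning that each form has at least 1 coding transcript. Of these, 543 remain when any NMD transcript makes a form an NMD one. Most of the rest pair a coding form with one of other non-coding types, some of them mixed with NMD transcripts. Frame-keeping exons were annotated as coding in both forms in 1262 cases (80.4%).

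The NMD form was the minor form nearly everywhere. Exons whose inclusion form is the NMD one had a median inclusion of 0%: 250 of the 269 were under 10%, 19 were between 10 and 90% and none was over 90%. Pooled over these 269 exons, the NMD form took 529 of 30852 reads (1.71%) in replicate 1 and 533 of 24714 (2.16%) in replicate 2. Exons whose skipping form is the NMD one had a median inclusion of 99.5%, with 431 of 472 over 90%, 41 between and none under 10%. Their NMD form took 857 of 46363 reads (1.85%) in replicate 1 and 848 of 40608 (2.09%) in replicate 2. In these pooled totals a read counts once for each exon it covers, so 1 read can enter more than once. Many of the reads of NMD forms belong to models that have the form's junctions but are not annotated transcripts. Among the 222 and 363 exons of the 2 types that kept 20 reads a library with annotated transcripts alone, the NMD form then took 0.887% and 1.08% of reads for inclusion forms, and 0.833% and 0.752% for skipping forms, in replicates 1 and 2. Transcripts that NMD has already removed are not read, so rare splicing into a form and rapid loss of its RNA cannot be told apart here.

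Among exons whose inclusion form is annotated for NMD, Yaf2 stood highest in reads among those between 10 and 90%. Yaf2 is a partner of YY1 and of Polycomb repressive complex 1. Its 70 nt exon was held by 108 of 268 reads in replicate 1 and 114 of 242 in replicate 2, a mean inclusion of 43.7 ± 4.8% (SD, n = 2), and the stop in it would leave 68 of 179 residues. The exact 95% intervals, 34.4 to 46.4% in replicate 1 and 40.7 to 53.6% in replicate 2, overlap. Nt5c3, a pyrimidine nucleotidase, had 49 and 25 reads with its 55 nt exon against 61 and 42 without it, a mean of 40.9 ± 5.1%. Cnot2, a subunit of the CCR4-NOT deadenylase complex, had 42.2 ± 5.6% for a 58 nt exon. Both forms of all 3 were read in each library.

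Other exons of this type were chosen after their values were seen. Nop56, a core protein of box C/D small nucleolar particles, held its 119 nt exon in 19 of 90 reads in replicate 1 and 12 of 62 in replicate 2 (20.2 ± 1.2%). Rabggtb, a subunit of the enzyme that attaches geranylgeranyl groups to Rab proteins, had 20.6 ± 6.9% for a 98 nt exon. Hnrnpll, an RNA-binding splicing regulator, had 9 of 78 reads in replicate 1 and 12 of 78 in replicate 2 with an 83 nt exon (13.5 ± 2.7%). Glrx3, a glutaredoxin that handles iron-sulfur clusters, had 13.8 ± 5.6% for an 89 nt exon, with 9.8% in replicate 1 and 17.8% in replicate 2. Brsk2, a brain kinase, held a 95 nt exon at 45.5 ± 2.2%, and there the stop lies 9 nt before the last junction although the inclusion form is annotated for NMD. Some of these values rest on models built from the libraries and not on the annotated NMD transcripts. With annotated transcripts alone inclusion was 45.8% for Yaf2 and 40.1% for Nt5c3, but 0% for Glrx3, Nop56 and Cnot2, 2.17% for Rabggtb and 9.23% for Hnrnpll.

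Among exons whose skipping form is annotated for NMD, only Rnf114 was read mostly in that form. Rnf114 is a RING-type ubiquitin ligase. Its 151 nt exon, printed above, was held by 34 reads and skipped by 57 in replicate 1, and held by 22 and skipped by 45 in replicate 2, an inclusion of 35.1 ± 3.2%. Xpnpep1, a cytosolic aminopeptidase, was nearly even, with 105 reads holding its 89 nt exon and 75 skipping it in replicate 1, and 85 and 63 in replicate 2 (57.9 ± 0.64%). Coq2, a prenyltransferase of coenzyme Q synthesis, stood at 61.4 ± 1.7% for a 167 nt exon. Prmt5, an arginine methyltransferase that acts on spliceosomal proteins, stood at 73.9 ± 5.3% for a 119 nt exon. In Xpnpep1, Coq2, Prmt5 and Rnf114 the exon in question is the second of the leading coding transcript. Counting annotated transcripts alone, inclusion was 99.5% for Xpnpep1 and 100% for Coq2 and Prmt5, so that nearly all of their skipping reads were in models built from the libraries, while Rnf114 stood at 33.4%.

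The most deeply read exons of these 2 NMD types were almost pure. In Nsmf, a synapse-to-nucleus messenger, the 125 nt exon was held by 856 reads and skipped by 0 in replicate 1, and held by 1108 and skipped by 1 in replicate 2. Ldha, lactate dehydrogenase A, had 1149 and 766 reads with its 118 nt exon and none without it, which allows skipping of up to 0.261% and 0.392% (3 reads of the total in each library). Mdh2, mitochondrial malate dehydrogenase, had 949 and 581 with its 169 nt exon and none without. The other direction was as clean: Pebp1, an inhibitor of Raf kinase, had 1022 and 658 reads skipping a 149 nt exon and none holding it. Cox4i1, a subunit of cytochrome c oxidase, had 1034 and 512 reads skipping a 142 nt exon and none holding it, allowing inclusion of up to 0.290% and 0.586%. Pld3 departed most among the 10 deepest, with 9 of 644 reads skipping its 143 nt exon in replicate 1 and 13 of 562 in replicate 2. Counting annotated transcripts alone, its inclusion was 100%, so those skipping reads were in models built from the libraries.

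Place in the message was read from 1 leading coding transcript per exon, chosen by its APPRIS and support tags in the annotation and not by reads. The exon lies inside the coding sequence for 1604 members (81.5%), in the 5′ UTR for 261 (13.3%), over the start codon for 58, over the stop codon for 19 and in the 3′ UTR for 8. A further 19 have no complete coding transcript. Between 10 and 90% inclusion lay 10.5% of the coding members, 15.7% of the 5′ UTR members, 29.3% of the start-codon members and 11 of 19 stop-codon members. Frame-keeping exons stood at 24.4% in the coding sequence and 23.9% in the 5′ UTR.

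The leading transcript was then altered by script, adding or removing the exon, and the first stop was located. An early stop, more than 50 nt before the last exon junction, arose for 1308 of the 1604 coding members (81.5%), and a late one for 292. For the early-stop members the altered product had a median length of 28.9% of the original, and 958 of the 1308 kept at most 50%. For the late-stop members the median was 84.7%, and 212 of the 292 had the stop in the last exon. Frame-keeping coding exons gave an early stop in 204 cases (14.6%).

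Where the altered form would have an early stop, it was seldom read. Its share was at least 10% for 124 of 1308 members (9.48%; 9.17% in replicate 1 and 10.1% in replicate 2), with a median share of 0.136%. With a late stop it was at least 10% for 47 of 292 (16.1%; 16.4% and 17.1%), with a median of 1.07%. For exons of the 5′ UTR or over a start or stop codon, the other form more often reached 10%. It did so for 74 of 261 5′ UTR exons (28.4%), 19 of 58 start-codon exons (32.8%) and 12 of 19 stop-codon exons (63.2%). In 53, 8 and 9 of these it took over 50% of reads, so that the leading transcript had the minor form. Inside the coding sequence that held for 26 of 1604 members. Among frame-keeping exons the other form reached 10% for 36 of 113 5′ UTR exons (31.9%). It did so for 5 of 26 start-codon exons (19.2%) and 8 of 11 stop-codon exons (72.7%) of that kind. Inside the coding sequence frame-keeping exons stood at 24 of 204 (11.8%) with an early stop and 347 of 1195 (29.0%) with a late stop. For a frame-keeping exon a late stop includes the leading transcript's own stop, still in frame, so the late-stop shares of the 2 kinds are not like for like.

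**Figure D2:**
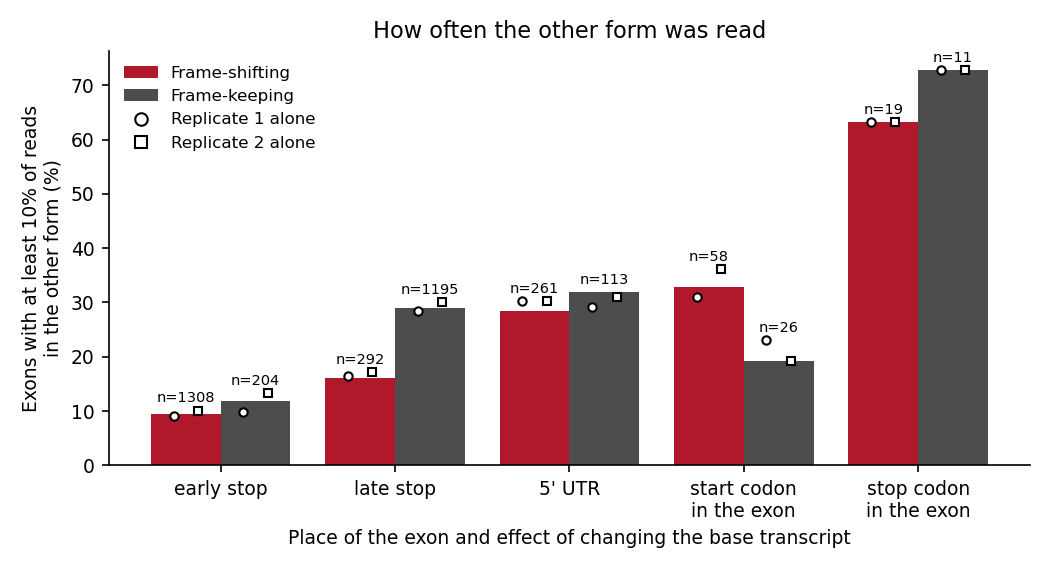
Share of exons (vertical axis, %) whose other form, the one the leading coding transcript does not have, took at least 10% of reads, by place and by the stop it would give (horizontal axis). Bars count exons by their mean share over both libraries, open symbols by the share in each library alone, and n is the number of exons. Early-stop exons stand lowest, at 9.48% of frame-shifting and 11.8% of frame-keeping exons. For frame-keeping exons a late stop includes the leading transcript's own stop.

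Skipping was read along the transcript too, as a description with no test. Among coding members that the leading transcript holds, skipping reached 10% for 29 of 200 second exons (14.5%), 16 of 140 next-to-last exons (11.4%) and 67 of 702 exons between them (9.54%). Among those with an early stop on skipping the shares were 25 of 181 second exons (13.8%) and 58 of 640 exons between (9.06%). No next-to-last exon can give an early stop on skipping by the rule used.

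An early-stop form was the major form for 10 members, some that the leading transcript lacks and some that it holds. In Ctbp1, a transcriptional corepressor, a 193 nt exon that its leading transcript lacks was held by 377 reads and skipped by 138 in replicate 1, and held by 367 and skipped by 120 in replicate 2 (74.3 ± 1.5%). Read from the start codon of that transcript, the exon would end the protein after 16 residues, but inclusion transcripts are also annotated as coding. With annotated transcripts alone the same exon stood at 31.5%. Slc22a17, a lipocalin-2 receptor, likewise held a 104 nt exon in 188 of 189 and 182 of 185 reads, and both of its forms are annotated as coding. In 184 early-stop members both forms are annotated as coding, and in 29 of these the other form was at least 10%, so the stop read from 1 start codon is not always the stop the annotation uses. Rnf114, above, Ttc3 (19.6 ± 1.1% inclusion of a 163 nt exon) and Ntan1 (30.8 ± 5.0% of a 103 nt exon) are held by the leading transcript and were skipped in most reads. With every spanning intron counted, Ttc3 stood at 10.2% and Ntan1 at 17.7%.

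Actr3b, a brain-enriched version of the Arp3 subunit of the actin-nucleating Arp2/3 complex, had the most reads among early-stop exons between 10 and 90% that the leading transcript holds. Its 56 nt second exon was held by 224 reads and skipped by 96 in replicate 1, and held by 176 and skipped by 95 in replicate 2. That is an inclusion of 70.0% with an exact 95% interval of 65 to 75% in replicate 1, and 64.9% with 58.9 to 70.6% in replicate 2, and the intervals overlap. Skipping it would leave 25 of 418 residues. Zc3h14, a poly(A)-binding zinc finger protein of neurons, had 74.2 ± 4.0% for a 115 nt exon, and Cops4, a subunit of the COP9 signalosome, had 84.4% for an 80 nt exon. Both stood at 100% with annotated transcripts alone.

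**Figure D3:**
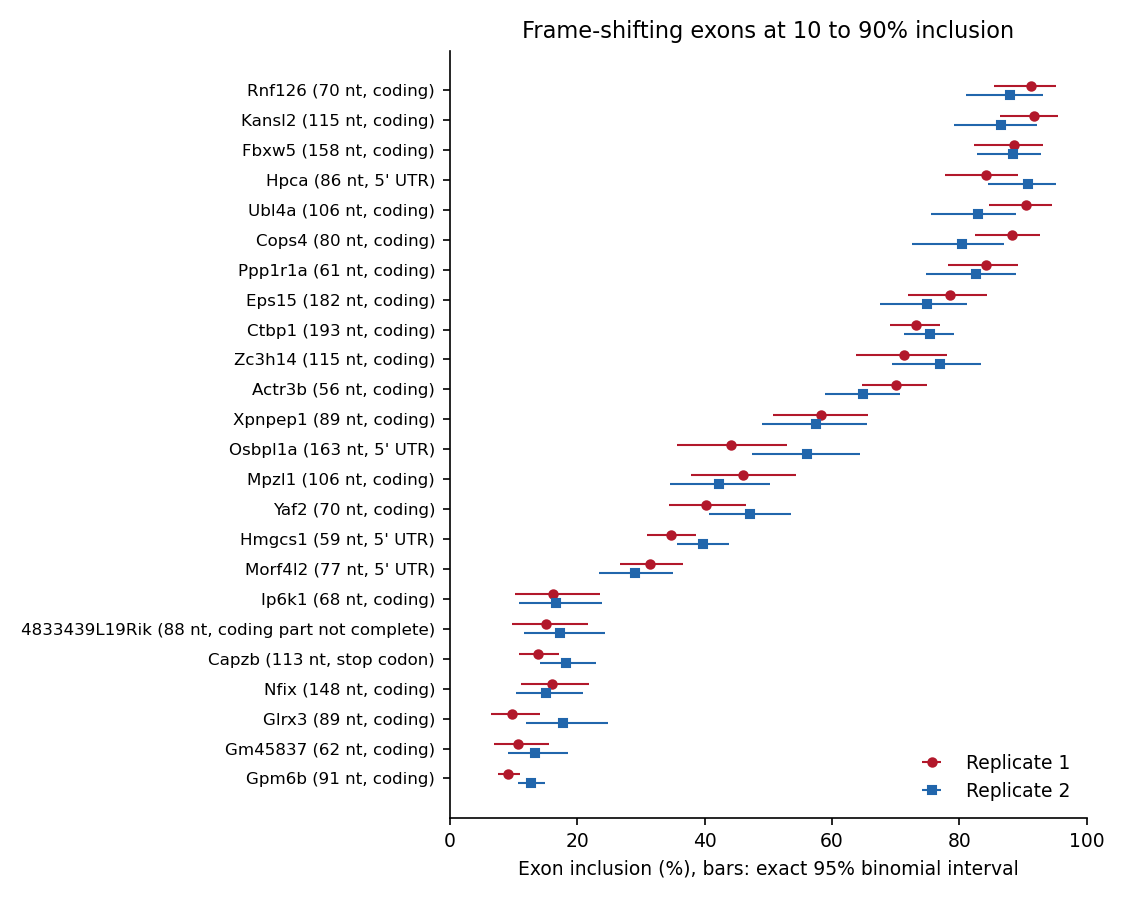
Inclusion (horizontal axis, %) of the 24 frame-shifting exons between 10 and 90% with the most reads (268 to 2106 over both forms and libraries), with exact 95% binomial intervals for each library. Gene, length and place in the leading coding transcript are on the vertical axis; the 2 libraries' intervals overlap for every exon shown.

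Late-stop exons change the C-terminus without an early stop. Gpm6b, a proteolipid of glia and neurons, had the most reads of all members between 10 and 90%. Its 91 nt exon on the X chromosome was held by 102 reads and skipped by 1014 in replicate 1, and held by 126 and skipped by 864 in replicate 2, an inclusion of 9.14% and 12.7%. The stop lies within the exon, 10 nt before the last junction, and changes 269 residues to 246.
Gpm6b exon of 91 nt (chrX:166385391-166385481, plus strand), shown for the last 30 bases to its stop in capitals: agtcgggaagactgctgcactaagttcTAA
Eps15, an adaptor of clathrin endocytosis, held its 182 nt next-to-last exon in 143 of 182 and 125 of 167 reads (76.7 ± 2.6%), and skipping changes 897 residues to 791. Nfix, a nuclear factor I transcription factor, held a 148 nt exon in 31 of 194 and 29 of 192 reads (15.5 ± 0.62%), and its relative Nfib held an 89 nt exon in 7 of 85 and 13 of 104 (10.4 ± 3.0%). With annotated transcripts alone Eps15 stood at 100%, Nfix at 7.16% and Nfib at 9.74%, and with every spanning intron Nfib stood at 16.7%. Mpzl1, an immunoglobulin-type surface protein, was nearly even, with 70 of 152 and 69 of 163 reads holding a 106 nt exon (44.2 ± 2.6%).

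Other late-stop members lie in Atp2b1, Dclk1 and Map4. Atp2b1, a plasma membrane calcium pump, held a 154 nt exon in 53 of 57 and 44 of 49 reads (91.4 ± 2.3%). The leading transcript lacks it, and it changes 1220 residues to 1176. Dclk1, a doublecortin-like kinase, held a 74 nt exon in 17 of 64 and 25 of 79 reads (29.1 ± 3.6%), which changes 739 residues to 728. Map4, a microtubule-associated protein, held a 190 nt exon at 33.2 ± 2.1%. In each the 2 libraries lay within a few points of each other.

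Of the 19 exons over the stop codon, 11 lay between 10 and 90%, 7 over 90% and 1 under 10%. Capzb, the beta subunit of the actin capping protein, is known for splice forms that differ in the C-terminus. Its 113 nt exon was held by 69 reads and skipped by 430 in replicate 1, and held by 57 and skipped by 255 in replicate 2 (13.8% and 18.3%). Kctd17 stood at 39.9 ± 4.6% for an 88 nt exon, and Ktn1, kinectin, an endoplasmic reticulum protein, at 26.2 ± 5.8% for a 110 nt exon. With every spanning intron counted, the Kctd17 exon stood at 53.9%. Ncoa1, a nuclear receptor coactivator, held a 55 nt exon in 27 of 54 reads in replicate 1 and 55 of 73 in replicate 2. At 25.3 points that is the widest gap between libraries among the 109 members between 10 and 90% with at least 100 reads. At the other end Snap91, the neuronal clathrin assembly protein AP180, held a 103 nt exon in 280 of 281 and 284 of 284 reads.

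Exons over the start codon include several of genes for RNA-binding proteins, chosen after their values were seen. Hnrnpr held the 166 nt version of its exon in 35 of 83 reads in replicate 1 and 49 of 115 in replicate 2 (42.4 ± 0.31%). Its relative Syncrip held a 160 nt exon in 25 of 49 and 33 of 53 reads (56.6 ± 8.0%). Stau2, a double-stranded RNA-binding protein of neuronal transport granules, held a 131 nt exon at 18.1 ± 6.1%. Mdm2, the ubiquitin ligase of p53, held an 85 nt exon in 30 of 47 and 22 of 46 reads (55.8 ± 11%).

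In the 5′ UTR the deepest exons were those left out. Apoe, the lipid carrier made by astrocytes, held a 70 nt exon in 3 of 5550 reads in replicate 1 and 4 of 4416 in replicate 2. Sparcl1, an astrocyte-secreted matrix protein, held a 178 nt exon in 19 of 1441 and 24 of 1675 reads (1.38 ± 0.081%), and annotated transcripts alone gave 0.0358%. Pkm, pyruvate kinase, held a 184 nt exon in 0 of 1261 and 0 of 1224 reads. Of the 261 exons there, 190 were under 10%, 41 between and 30 over 90%.

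Several 5′ UTR exons were read in both forms. Hmgcs1, the synthase at the entry to cholesterol synthesis, held its 59 nt exon in 217 of 625 reads in replicate 1 and 235 of 592 in replicate 2 (37.2 ± 3.5%), the deepest of them. Morf4l2, a chromatin protein, held a 77 nt exon in 112 of 356 and 72 of 248 (30.2 ± 1.7%). Hpca, hippocalcin, a calcium sensor named for this tissue, held an 86 nt exon in 143 of 170 and 118 of 130 (87.4 ± 4.7%). Mag, a myelin glycoprotein, held a 53 nt exon in 18 of 84 and 22 of 55 (30.7 ± 13%). Among the 5 members nearest 50% with at least 100 reads, 2 are 5′ UTR exons, in Osbpl1a (50.1 ± 8.4%) and Flywch1 (51.5 ± 9.3%), and the others are in Dnlz (50.4 ± 5.6%), Mpzl1 and Yaf2. In bulk tissue an exon read at an even share may be even in each cell or split between cell types, and fewer cells of a type and less RNA per cell cannot be told apart.

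Some members stand next to an exon of equal length. For 38 members an annotated internal exon of equal length lies at one of the flanking sites, which makes 34 pairs. In 8 of the pairs, such as those of Cdipt and Sec13, at least 90% of the reads of each library held both exons, and 5 pairs, in Gria2, Gria3, Calu, Flot2 and Fam49b, had reads with each exon alone in both libraries. Gria2 and Gria3 encode AMPA-type glutamate receptor subunits, whose flip and flop forms come from 2 such exons of 115 nt, and a coding transcript holds 1 of them. Calu, calumenin, a calcium-binding protein of the secretory pathway, has 2 such exons of 194 nt. For the members in Gria2, Gria3 and Calu the counted event is a transcript with both exons, which shifts the frame, against one with a single exon.

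The Gria2 exons are printed because they make the case. Their last 30 bases are shown, with bases that differ between them in capitals and the coordinates of the whole exons.
Gria2 upstream exon, flop (chr3:80691320-80691434, minus strand): gaGtgCggCAGcGGggGAGGTgATTCCaag
Gria2 downstream exon, flip (chr3:80690404-80690518, minus strand): gaAtgTggAGCcAAggACTCGgGAAGTaag
Over their whole length they match at 79 of 115 positions (68.7%), the Gria3 exons at 83 of 115 (72.2%) and the Calu exons at 127 of 194 (65.5%).

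In the Gria2, Gria3 and Calu pairs nearly all reads across both exons held 1 of them. In Gria2, 118 of 277 reads in replicate 1 and 116 of 292 in replicate 2 held the upstream exon alone (42.6% and 39.7%), 156 and 165 held the downstream exon alone (56.3% and 56.5%), 3 and 11 held both and 0 and 0 held neither. In Gria3, 9 of 36 and 6 of 32 held the upstream exon alone and 24 and 25 the downstream exon alone, while 2 and 0 held both. In Calu, 66 of 92 and 61 of 108 held the upstream exon alone and 26 and 45 the downstream exon alone, with 0 and 1 holding both. Counted between fixed sites, the Gria2 member had an inclusion of 6.71 ± 3.9%. Counted over every intron that spans it, the same exon had 58.8%. Of all 1969 members, 42 (2.13%) moved by more than 10 points between these 2 ways of counting, among them 8 of the 38 with a neighbour of equal length.

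**Figure D4:**
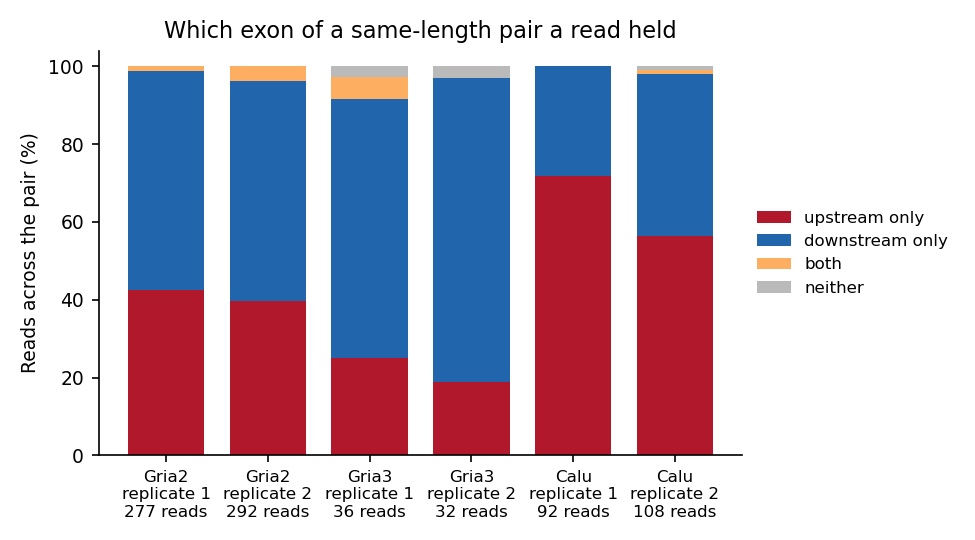
Share of reads across a pair of same-length neighbouring exons (vertical axis, %) that held the upstream exon alone, the downstream exon alone, both or neither, in each library. Reads with both were 3 of 277 and 11 of 292 in Gria2, 2 of 36 and 0 of 32 in Gria3, and 0 of 92 and 1 of 108 in Calu.

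Gene lists, written with earlier results of these data known, were read for members. The lists differ in length, so their counts are not ranked. Splicing regulators, the longest list, had 26 members in 17 of 65 genes, 16 of them under 10%, 4 between 10 and 90% and 6 over 90%, with a median inclusion of 5.33% against 91.7% over all members. A form annotated only for NMD was present for 13 of the 26, against 37.8% of all members, and 19 gave an early stop, against 66.4% of all members. Rbm39, a cofactor of U2AF, held its 55 nt exon in 1 of 224 reads in replicate 1 and 4 of 177 in replicate 2, and its 73 nt exon in 9 of 221 and 26 of 171 (4.07% and 15.2%). Celf4, a neuronal RNA-binding protein, held an 85 nt exon in 31 of 466 and 38 of 457 (7.48 ± 1.2%). Srsf2, an SR protein with known splicing in its own 3′ UTR, held a 104 nt exon there in 9 of 184 and 9 of 196 (4.74 ± 0.21%). Annotated transcripts alone gave 0% for the 55 nt exon of Rbm39, 4.14% for its 73 nt exon, 0% for Celf4 and 2.34% for Srsf2. With every spanning intron counted, the 55 nt exon of Rbm39 stood at 2.69% and its 73 nt exon at 11.1%, which is over 10%. Snrpb, a core protein of spliceosomal particles, held a 124 nt exon in 7 of 191 and 9 of 110 (5.92 ± 3.2%), and annotated transcripts alone gave 3.38%.

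Counted between fixed sites, the 4 splicing regulator exons between 10 and 90% were in Hnrnpa2b1, Mbnl2, Clk2 and Rbm5. Hnrnpa2b1 held a 136 nt exon of its 3′ UTR in 24 of 33 and 13 of 24 reads (63.4 ± 13%). Mbnl2, a muscleblind protein, held a 95 nt exon in 12 of 61 and 21 of 67 (25.5 ± 8.3%), but with every spanning intron counted the same exon stood at 62.5%. Clk2, a kinase of SR proteins, held an 88 nt exon in 29 of 33 and 21 of 24 (87.7 ± 0.27%), where skipping is annotated for NMD, and Clk3, outside the list, stood at 89.2 ± 5.9% for a 97 nt exon of the same annotated type (100% with annotated transcripts alone). Rbm5 held a 74 nt exon in 52 of 54 reads in replicate 1 and 23 of 31 in replicate 2. The only NMD factor with members was Rnps1 (1 of 16 genes), at 64.6 ± 13% for a 122 nt exon of its 5′ UTR and 93.3 ± 0.37% for a 181 nt exon over its start codon. With every spanning intron counted, they stood at 58.9% and 85.1%.

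No member of the 2 synaptic lists lay between 10 and 90%, against 12.4% of all members, and with every spanning intron counted Gria2 and Gria3 did. The vesicle list had 5 members in 5 of 30 genes, 2 under 10% and 3 over 90%. Napa, alpha-SNAP, which recycles SNARE complexes, held an 80 nt exon in 575 of 575 and 501 of 501 reads, and Ap2a1, a subunit of the clathrin adaptor AP-2, held the 109 nt exon printed above in 5 of 310 and 5 of 312, none of them in annotated transcripts. The postsynaptic list had 4 members in 4 of 30 genes. Camk2b, a subunit of calcium/calmodulin kinase II, held a 95 nt exon in 316 of 317 and 454 of 454 reads, and Gabbr1, a GABA-B receptor subunit, held a 151 nt exon in 49 of 49 and 45 of 45. Gria2 and Gria3, described above, were the others.

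The cytoskeleton list had 15 members in 10 of 27 genes, 7 under 10%, 3 between and 5 over 90%. Those between were in Map4 and Dclk1, above, and in Tpm1, a tropomyosin, where a 79 nt exon stood at 23.3 ± 4.7%, and at 6.15% with every spanning intron counted. Tpm3 held a 79 nt exon in 18 of 380 reads in replicate 1 and 30 of 285 in replicate 2, and the value moved to 19.9% when annotated transcripts alone were counted. Cttn, cortactin, held a 70 nt exon in 248 of 248 and 278 of 278. The translation list had 8 members in 5 of 25 genes, 7 over 90% and 1 under 10%. Eif4a2, a helicase of translation initiation, held a 140 nt exon in 663 of 683 and 513 of 548 reads (95.3 ± 2.5%) and a 107 nt exon in 2 of 665 and 4 of 540. The glial list had 7 members in 6 of 20 genes, 2 of them, in Gpm6b and Mag, between 10 and 90%, and Aldoc, the aldolase of astrocytes, held a 200 nt exon in 1396 of 1397 and 1669 of 1669.

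Members in genes whose annotated type is not protein-coding were 6, and 5 are named. In Meg3, an imprinted long non-coding RNA, a 94 nt exon was held in 13 of 127 reads in replicate 1 and 13 of 89 in replicate 2 (12.4 ± 3.1%). Gm19196 held a 98 nt exon in 27 of 45 and 10 of 20. Low inclusion was seen in 9630013A20Rik (2 of 34 and 0 of 40), in Ube2d-ps (1 of 29 and 1 of 25, but 26.1% with every spanning intron) and in a 58 nt exon listed under Ptpmt1 (0 of 49 and 1 of 46). Frame has no meaning for an RNA that is not translated, so where the annotated gene type is right the name of the group states length alone. Whether any of these RNAs is translated was not tested.

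The 2 libraries did not differ for any member at the threshold used. A 2-sided Fisher's exact test of the reads of both forms, with Benjamini-Hochberg adjustment over all 4450 cassette exons, called 0 of 1969 members at an adjusted p of 0.05, against 1 of 4450 exons tested (0.0225%). At an unadjusted p of 0.05 it called 47 members, against 135 of 4450 (3.03%). The test compares these 2 libraries and not conditions. The lowest value was for Fam45a, whose 80 nt exon was held by 45 reads and skipped by 1 in replicate 1, and held by 27 and skipped by 14 in replicate 2 (Fisher's exact test, adjusted p = 0.186). Rbm39's 73 nt exon, above, had an adjusted p of 0.199 by the same Fisher's exact test, and Orc6, a subunit of the origin recognition complex, had 23 of 31 reads with its 130 nt exon in replicate 1 and 5 of 21 in replicate 2 (Fisher's exact test, adjusted p = 0.359).

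For the 245 members between 10 and 90% the libraries lay a median of 6.79 points apart, with 126 higher in replicate 1, 115 higher in replicate 2 and 4 equal. With at least 100 reads (109 members) the median gap was 5.08 points and Pearson's r between libraries was 0.967, a correlation across exons that share 2 libraries and are not replicates. Of the 245, 59 lay outside 10 to 90% in 1 of the libraries, 22 of them among the 109 with at least 100 reads and 37 among the 136 with fewer.

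**Figure D5:**
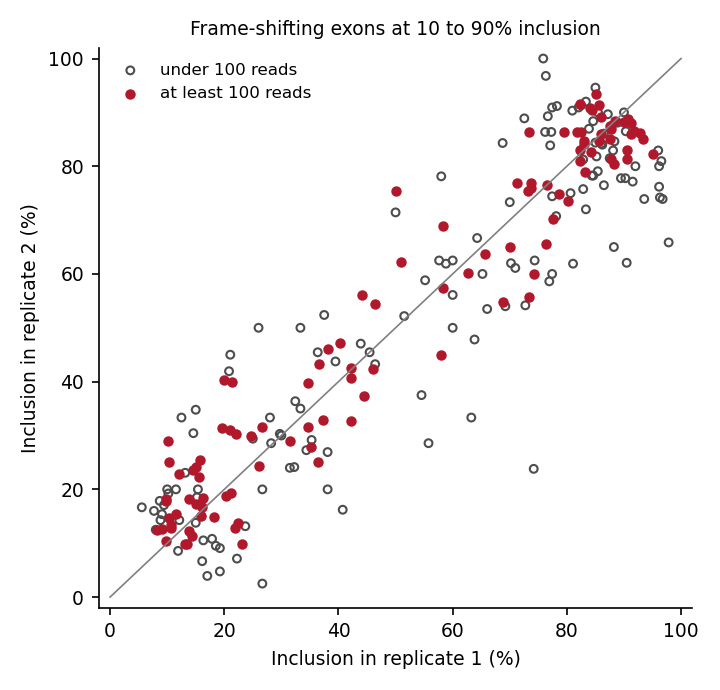
Inclusion in replicate 1 (horizontal axis, %) and replicate 2 (vertical axis, %) of the 245 frame-shifting exons with a mean inclusion of 10 to 90%, filled for the 109 with at least 100 reads and open for the rest, with the line of equal values. Filled points lie nearer the line, with a median gap of 5.08 points against 6.79 over all 245.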

How the data were processed

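Each library has a deposited table of raw counts, the whole number of reads the authors assigned to every transcript model, and an annotation with the exon coordinates of those models. Per the file headers the build was mm10 and the annotation GENCODE M21, to which models made from the library's own reads were added, with TALON named as their source in the deposited annotation. None of the sources used names the aligner, its version or the read filters.

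Cassette exons were found in the annotated transcripts. A read of any model, annotated or added, counted for inclusion when its model holds both junctions of the exon, and for skipping when it joins the same flanking sites. Where an exon has several such pairs of sites, the one with the most reads was used. Values in both libraries are means ± SD (n = 2), and single shares carry exact (Clopper-Pearson) 95% intervals. The sample characteristics number different animals for the 2 pools, but free text of the second library names the first one's animals, so the spread could be partly technical.

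A form was called an NMD form only if all its annotated transcripts have that type. It was called coding if at least 1 of them has the protein-coding type. The leading coding transcript was the complete one with the best APPRIS tag, then support level, then coding length, of either form, and the outcome of adding or removing the exon was read from its GENCODE sequence. All 11362 transcripts of both forms matched GENCODE M21 in exon coordinates. Alleles of the hybrid were not separated, and printed sequences are those of the reference. The scripts ran under Python 3.11.15 with scipy 1.17.1 and pandas 2.3.3, figures came from matplotlib 3.10.9, and the Fisher's exact test step was tested on simulated data.

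Members, lists and tests were chosen with earlier results of these data known. The text names the exons with most reads (10), the 8 lowest, the 8 highest and the 5 nearest 50% among those with at least 100 reads, any member that differs between the libraries (there was none), the 10 deepest NMD-type exons, up to 4 per gene list, and the 5 deepest in UTRs and in non-coding genes. Of these 58 exons some are given by count alone. All other exons named, among them those of the text on places, stops and pairs, were chosen after their values were seen. Values of single exons outside the naming rule with annotated transcripts alone, or with every spanning intron, were added after seeing the data. CPM is reads per library total, scaled here from the deposited counts.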

Additional observations from a re-analysis of the deposited data

How the results depend on the processing

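No paired analysis was possible because the series holds 1 group. Of the alternatives run, a minimum of 50 reads in each library left 966 members (219 with NMD skipping forms, 143 with NMD inclusion forms and 351 coding in both), of which 872 were under 10% or over 90%, against 1724 of 1969. The median inclusion of 91.7% became 89.2% with a minimum of 10 reads, 93.8% with 50, 96.9% with annotated transcripts alone, 90.8% with all pairs of flanking sites summed and 90.1% with every spanning intron counted, and 90.2 to 90.5% with 1 library left out. The cause of these shifts was not tested beyond the change of exons and reads that each setting makes. Counting every spanning intron gave 1 member that differed between libraries by Fisher's exact test, the Fam45a exon, against 0. The other counts kept within 1.5 times under the remaining alternatives. Among 58 exons of the naming rule, 14 moved by more than their SD with every spanning intron, 3 of them by more than 10 points (Gria2 to 58.8%, Gria3 to 24.4% and Ube2d-ps to 26.1%). With annotated transcripts alone 12 of 50 did, 1 by more than 10 points (Tpm3, to 19.9%). Sparcl1 fell to 0.0358% and Srsf2 to 2.34%, and Celf4, Ap2a1, Gria2 and the 55 nt exon of Rbm39 to 0%. Leaving out a library gives no value for the test between libraries.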

Other observations

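In 13 genes 2 or more frame-shifting exons lay between 10 and 90% inclusion. In Fhl1, a LIM-domain protein on the X chromosome, a 200 nt exon stood at 41.6 ± 3.0% (SD, n = 2) and a 187 nt exon at 83.5 ± 2.4%. In Fbxo34 a 110 nt exon stood at 67.1 ± 10% and a 77 nt exon at 18.9 ± 4.7%. In Hpca a 98 nt exon stood at 84.4 ± 2.8%, beside the 86 nt exon given above, and in Cnot2 a 143 nt exon over the start codon stood at 83.7 ± 14%, beside the 58 nt exon. With every spanning intron counted, the 187 nt exon of Fhl1 stood at 90.1% and the 143 nt exon of Cnot2 at 91.6%. These genes were picked after their values were seen, and no test was run on them.

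Flot2, flotillin 2, has 2 neighbouring exons of 91 nt, of which 183 of 281 reads in replicate 1 and 182 of 302 in replicate 2 held the downstream exon alone, 54 and 57 the upstream exon alone, 12 and 10 both and 32 and 53 neither. Fam49b has 2 of 83 nt, with 138 of 204 and 128 of 166 reads holding the downstream exon alone, 37 and 18 the upstream one alone, 17 and 6 both and 12 and 14 neither.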
